A study of Homo sapiens with 16 samples.

Results

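DoGs (downstream-of-gene transcripts) are RNAs that continue for kilobases past the annotated end of a gene. Of the 3139 DoG regions with a deposited expression value, 48 belonged to genes whose symbols carry the name of a chromatin modifier family. These 48 were chosen by symbol, with earlier results of these data known. The families were KMT, SETD, SUV39H, EZH, KAT and DNMT (13 writers), and KDM, HDAC and SIRT (9 erasers). The others were CHD, ARID and SMARC (10 remodellers), and CBX, PHF, ING, BRD, BAZ and ASXL (16 readers and scaffolds). All 48 are protein coding. In the GENCODE v44 annotation 156 named genes carry such a symbol, so 30.8% of them had a DoG value, against 14.9% of all named protein-coding genes. Which genes were expressed in these cells is unknown here, so both shares include genes that may be silent and are not directly comparable. A name is not a function for every member. EZHIP is an inhibitor of the Polycomb methyltransferase complex, PHF5A is a subunit of a splicing factor and SETD3 methylates actin.

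The RNA came from HEK293 cells, a human embryonic kidney line. Cells were grown without added agents (control) or for 9 h in medium with 200 mM sorbitol, which raises osmolarity, and 100 µg/mL cycloheximide, which blocks translation (the DoG-inducing condition, called stress here). RNA of each condition was prepared in 4 ways: conventional AGPC (acid guanidinium phenol chloroform) extraction, hiAGPC, in which heating improves recovery, the SERIPH 1st-step fraction from the aqueous phase, and the SERIPH 2nd-step fraction released by heat from the washed interphase. Each of the 8 groups held 2 replicate libraries, 16 in all. The preparations share material: the 2nd-step RNA comes from the interphase left by the 1st step, and the study's methods describe conventional AGPC and hiAGPC as run side by side on shared samples. The tables used here hold DoG regions only, so the cell line was not checked against marker genes.

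Writers add methyl or acetyl groups to histones or DNA, erasers remove them, readers bind the marked residues, and remodellers move nucleosomes with the energy of ATP. Transcription of most such genes ends shortly after the nascent RNA is cut at a polyadenylation signal, usually AATAAA or ATTAAA in the DNA, followed by a stretch rich in G and T. Hyperosmotic stress is known to weaken this termination, and the resulting readthrough RNA stays in the nucleus.

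A DoG begins past the last bases of a gene. The longest region of 41 of the 48 members began at the base after the v44 gene end, and 46 began within 1 kb of it. KDM8 began 4220 bases and SETD3 2688 bases past that end, so for these the bases searched below are not where the region began. The 30 bases before the annotated end are shown for 7 members that differ in when a DoG was listed, 5′ to 3′ on the strand of the gene, from GRCh38, with AATAAA or ATTAAA in capitals. SUV39H2 (chr10:14904286-14904315, + strand) was listed in all 16 libraries and KDM5A (chr12:280057-280086, - strand) in 13. CHD1L (chr1:147295736-147295765, + strand) and EZHIP (chrX:51408814-51408843, + strand) were listed in control libraries only. ING1 (chr13:110723310-110723339, + strand), CHD2 (chr15:93027967-93027996, + strand) and CBX5 (chr12:54230942-54230971, - strand) were listed under stress only.
SUV39H2: cacagtaagactgtctccaaaaaaaaaaaa
KDM5A: ggtaggaagaaagacttgatttaatatttc
CHD1L: gcataatAATAAAttttctgttcctaatgg
EZHIP: agtaaAATAAAttgttttgtttaaacaaaa
ING1: atgctgAATAAAgcatttatcaaagtaaaa
CHD2: ATTAAAaagtgttactgagcatttttagaa
CBX5: gttctAATAAAtggttgcttttcaaatatg
Searched on the strand of the gene, AATAAA or ATTAAA lay in the last 50 bases of 31 of the 48 members (64.6%), of 68.4% of the 3090 DoG genes with a named v44 entry and of 73.5% of all named protein-coding genes. TGTGT lay in the first 100 bases past the end of 10 members (20.8%), against 23.4% and 23.3%. The GC content of the longest region had a median of 44.8% over the members and 45.6% over all DoGs. The 7 members shown do not stand for their listing groups. ARID1B, BAZ2A, EZH2 and PHF8, listed under stress only, had neither AATAAA nor ATTAAA in the last 50 bases. DNMT1, KAT7 and KMT2C, listed in both conditions, had one, and SETD5, also listed in both, had neither. Listing was not tested against these motifs.

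The authors listed DoG regions in each library separately, with a shortest length of 10000 bases, and listing depends on depth, which is unknown here for each library. Under stress, the SERIPH 2nd-step libraries listed 41 and 42 of the 48 members and the hiAGPC libraries 28 and 25. Conventional AGPC listed 8 and 4 and the 1st-step fraction 3 and 5. In control cells the corresponding counts were 9 and 9 (SERIPH 2nd-step), 8 and 7 (hiAGPC), 3 and 3 (conventional AGPC) and 3 and 4 (SERIPH 1st-step). The stress libraries thus stood above their controls without overlap in the SERIPH 2nd-step, hiAGPC and conventional preparations, and overlapped them in the 1st-step fraction. Over all 3139 DoGs, stress libraries listed 2275 and 2377 (SERIPH 2nd-step) and 1582 and 1540 (hiAGPC). Conventional AGPC listed 370 and 340 of them and the 1st-step fraction 312 and 363. In control cells these counts were 663 and 642, 465 and 455, 332 and 313, and 276 and 310, in the same order. All DoGs thus also stood above their controls, without overlap in any preparation. Stress minus control was 32.5 members per library in the 2nd-step fraction, 19 in hiAGPC, 3 in conventional AGPC (1 or 5 with 1 replicate left out) and 0.5 in the 1st-step fraction. The two-sided exact permutation p was 0.333 for the first 3 of these, the smallest that 2 libraries against 2 can give, and 1 for the last.

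**Figure D1:**
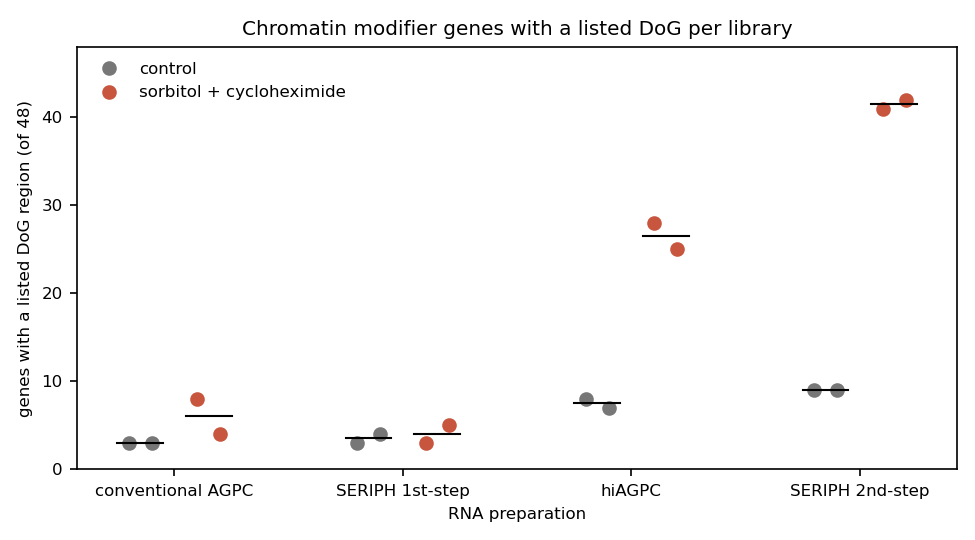
Number of the 48 chromatin modifier genes with a listed DoG region (vertical axis) in each library (points) by RNA preparation, in control (grey) and stress (red) cells; black lines are means of 2 libraries. The stress SERIPH 2nd-step libraries list 41 and 42, the stress hiAGPC libraries 28 and 25, and every other library 9 or fewer.

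Counting reproducible DoGs, those listed in both replicates, gave 38 members in the stress 2nd-step fraction, where 64.2% of all 3139 DoGs were reproducible. It gave 24 in stress hiAGPC (44.5% of all DoGs), and all 24 were among the 38. The 2nd-step fraction under stress was the only place where 16 members were listed, against 28.7% of all DoGs, and 9 of these (14.5% of all DoGs) were listed in both of its replicates: ARID1B, ARID2, ASXL2, CBX6, CHD1, CHD7, PHF5A, SETD3 and SUV39H1. The other 7 of the 16 were listed in 1 library only. By condition, 39 members were listed under stress only (74.1% of all DoGs), 6 in both conditions (13.9%) and 3 in control cells only (12% of all DoGs).

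The 6 members listed in both conditions included SUV39H2, which encodes a methyltransferase for lysine 9 of histone H3. Its region was 10 kb long in each of the 8 control libraries. Under stress it was 45 and 45 kb in conventional AGPC, 15 and 40 kb in the 1st-step fraction, 45 and 45 kb in hiAGPC, and 125 and 45 kb in the 2nd-step fraction. All 8 stress regions were therefore longer than all 8 control regions. KMT2C, a methyltransferase for lysine 4 of histone H3, was 20 and 20 kb in control SERIPH 2nd-step libraries and 180 and 225 kb under stress. SETD5 went from 20 and 15 kb to 35 and 105 kb in the same fraction, and KDM5A from 10 and 10 kb to 55 and 15 kb. KAT7 and DNMT1 overlapped between conditions there. KAT7 had 15 and 10 kb in control and 10 and 54 kb under stress, and DNMT1 10 and 10 kb against 25 and 10 kb.

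Expression of a DoG was deposited as FPKM (fragments per kilobase of region and sequencing depth), a level per length that is relative to its own library. Which reads of the library the authors scaled to is not given in the sources used here. A DoG that takes a larger share of a library cannot be told apart from a library with less of other RNA. Differences were tested with limma on log2(FPKM + 0.1) across all 3139 DoGs, and a call required a Benjamini-Hochberg adjusted p below 0.05 and a log2 difference of at least 1. FPKM values were rounded to 0.01, so values near that carry little precision, and the pseudocount of 0.1 makes fold changes of low DoGs too small. In control cells the median member had between 0.05 and 0.085 FPKM per library. Under stress the median was 0.145 and 0.135 in conventional AGPC, 0.135 and 0.145 in the 1st-step fraction, 0.585 and 0.575 in hiAGPC, and 0.955 and 1.01 in the 2nd-step fraction. Over all DoGs the corresponding stress medians were 0.86 and 0.84 in the 2nd-step fraction and 0.58 and 0.58 in hiAGPC. They were 0.16 and 0.14 in conventional AGPC and 0.14 and 0.14 in the 1st-step fraction. In control libraries they lay between 0.07 and 0.1.

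**Figure D2:**
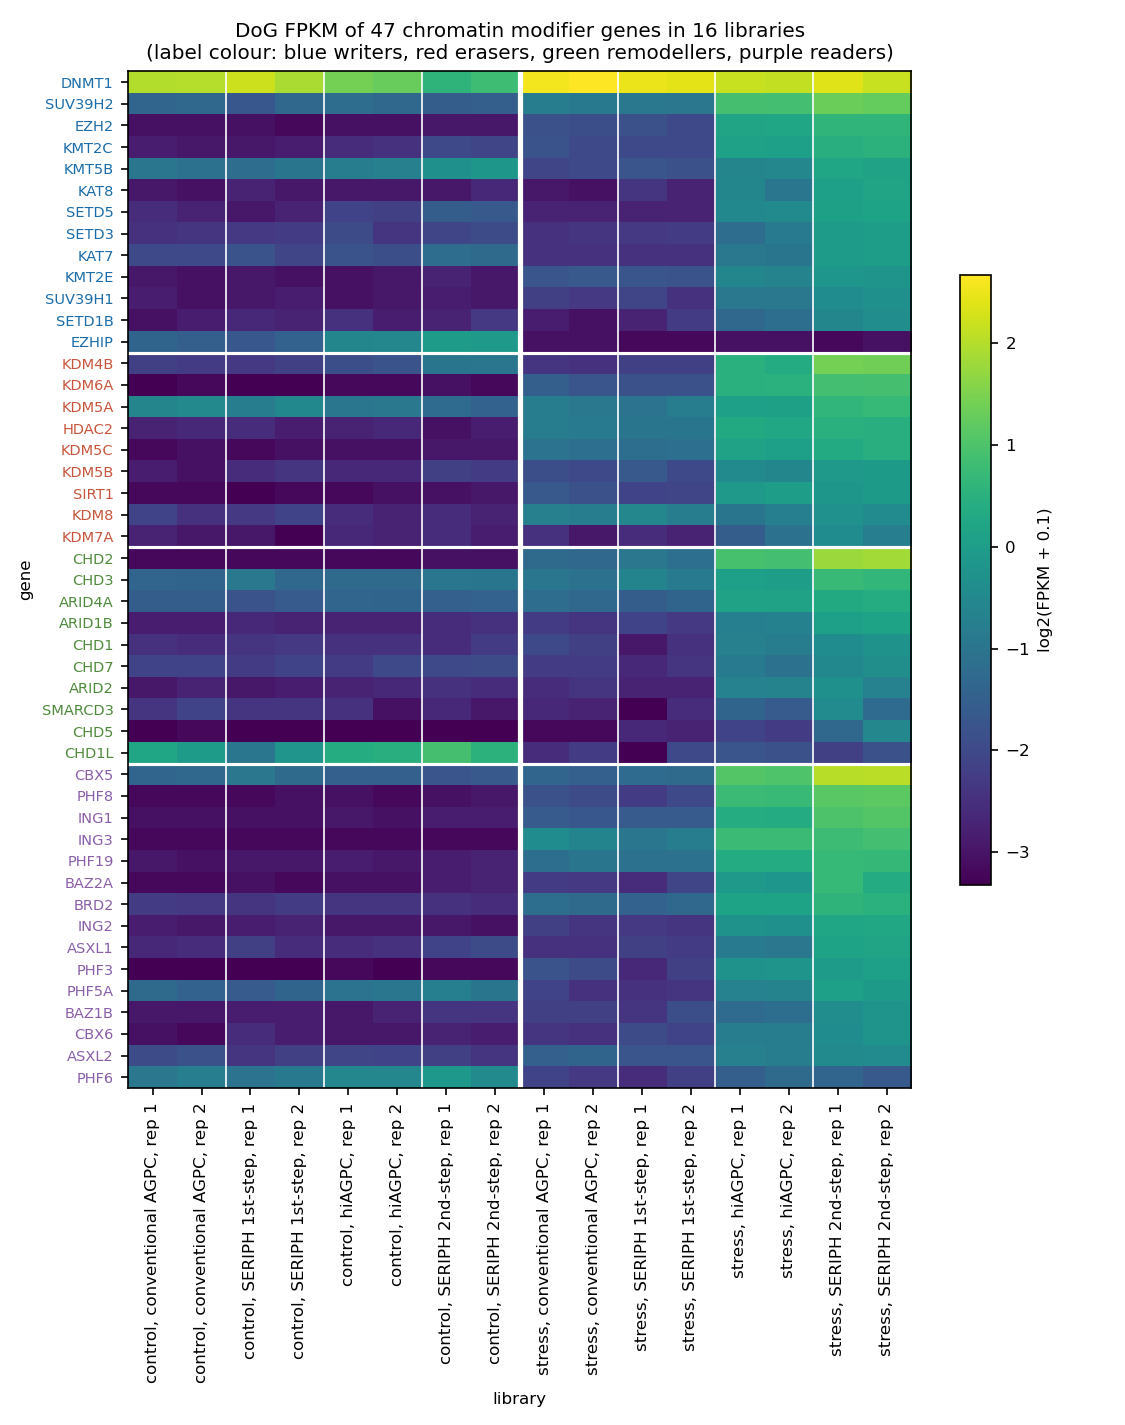
DoG level of 47 of the 48 genes (rows, grouped by role and ordered by mean level in the stress 2nd-step fraction) in the 16 libraries (columns), as log2(FPKM + 0.1) on the colour scale. Most genes are brightest in the stress hiAGPC and SERIPH 2nd-step columns, with CHD1L, EZHIP and PHF6 brighter in control columns and DNMT1 bright in all.

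Stress against control was the question of the first comparison. In the 2nd-step fraction 43 members rose and 3 fell (higher: 74.6% of all DoGs, lower: 11.7%), and in hiAGPC 41 rose and 2 fell (70.2% and 9.14%). In conventional AGPC 15 rose and 3 fell (22.2% and 11%), and in the 1st-step fraction 11 rose and 3 fell (21.8% and 10.6%). A DoG entered the table by being listed in some library, and the level was taken over 1 long region, so 39 members that were listed under stress only had entered through the condition in which they were then higher. They made up 37 of the 43 rises in the 2nd-step fraction and 37 of the 41 in hiAGPC, and the remaining 9 members the other 6 and 4. The counts of rises are therefore a description. The same holds for the differences and p-values given below for CHD2, KDM6A, PHF8 and EZH2, each listed under stress only. The median log2 difference of the members was 2.34 in the 2nd-step fraction and 2.03 in hiAGPC, where all DoGs had 2.38 and 1.86. It was 0.47 and 0.48 in conventional AGPC and the 1st-step fraction, where all DoGs had 0.44 and 0.43. With each library centred on its own median, which takes 2.25 off the SERIPH 2nd-step differences and 1.92 off those of hiAGPC, 11 members were higher and 6 lower in the first and 12 higher and 7 lower in the second. In conventional AGPC centring gave 6 higher and 6 lower, and in the 1st-step fraction 6 higher and 7 lower. The centred medians of members and of all DoGs were 0.09 and 0.13 in the 2nd-step fraction and 0.11 and -0.06 in hiAGPC. They were -0.09 and -0.12 in conventional AGPC and -0.02 and -0.06 in the 1st-step fraction. Shares of all DoGs called after centring are not given here, so no count of members after centring is set against one.

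Among the remodellers, CHD2, a chromodomain helicase, had the largest rise. Its FPKM was 0.02 and 0.02 in control SERIPH 2nd-step libraries and 3.32 and 3.5 under stress. The groups did not overlap, and the log2 difference was 4.87 ± 0.074 (SE, limma, Benjamini-Hochberg adjusted p = 5.45e-14). In conventional AGPC the same DoG went from 0.01 and 0.01 to 0.32 and 0.3. SMARCD3, a subunit of the SWI/SNF complex, had 0.06 and 0.03 in control 2nd-step libraries and 0.64 and 0.33 under stress, with replicates further apart. In the 2nd-step fraction 9 of the 10 remodellers rose and CHD1L fell, where 74.6% of all DoGs rose and 11.7% fell.

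All 9 erasers rose in the 2nd-step fraction and in hiAGPC, where 74.6% and 70.2% of all DoGs rose. In hiAGPC KDM5A lost its call without the first control library (log2 difference 0.99) and was -0.90 with centred libraries. KDM6A, which removes methyl groups from lysine 27 of histone H3, had 0.02 and 0.01 FPKM in control SERIPH 2nd-step libraries and 1.75 and 1.78 under stress, a log2 difference of 4.02 ± 0.084 (SE, limma, Benjamini-Hochberg adjusted p = 2.43e-13). KDM4B, a demethylase for lysine 9 of histone H3, had the highest stress level of the erasers, 2.56 and 2.5 FPKM, against 0.4 and 0.41 in control. HDAC2, a histone deacetylase, had 0.02 and 0.04 in control and 1.29 and 1.25 under stress, and SIRT1, an NAD-dependent deacetylase, 0.02 and 0.03 against 0.8 and 0.86. In conventional AGPC 6 of the 9 erasers rose, beside 2 of 13 writers, 6 of 16 readers, 1 of 10 remodellers and 22.2% of all DoGs, and these roles were not tested against each other. KDM5B, one of the 6, lost its call without the first stress or the second control library, at log2 differences down to 0.89. In the 1st-step fraction 5 erasers rose, beside 21.8% of all DoGs.

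Of the 16 readers and scaffolds, 14 rose and PHF6 fell in the 2nd-step fraction (74.6% and 11.7% of all DoGs). PHF8, which carries a PHD finger and is itself a demethylase, had 0.02 and 0.03 FPKM in control and 2.11 and 2.16 under stress, a log2 difference of 4.16 ± 0.093 (SE, limma, Benjamini-Hochberg adjusted p = 3.78e-13). ING3 and ING1, members of histone acetylation or deacetylation complexes, rose by 4.02 and 3.86 on the log2 scale. ING3 was also the member with the largest rise in conventional AGPC, from 0.01 and 0.01 to 0.65 and 0.55 FPKM. Its longest region reaches CPED1 and WNT16 on the same strand, so reads of these genes may be counted in it. CBX5, the heterochromatin protein HP1 alpha, reached the highest level of the readers, 3.96 and 4.06 FPKM, against 0.2 and 0.22 in control. The longest region of CBX5 reaches SMUG1 on the same strand, so reads of SMUG1 may be counted in it. BAZ2A, a bromodomain subunit of a nucleolar remodelling complex, had 0.04 and 0.05 in control and 1.53 and 1.19 under stress.

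Among the 13 writers, 11 rose and EZHIP fell in the 2nd-step fraction (74.6% and 11.7% of all DoGs). EZH2, the catalytic subunit of Polycomb repressive complex 2, went from 0.03 and 0.03 to 1.41 and 1.42 FPKM, a log2 difference of 3.54 ± 0.073 (SE, limma, Benjamini-Hochberg adjusted p = 2.33e-13). KAT8, which acetylates lysine 16 of histone H4, went from 0.03 and 0.06 to 0.94 and 1.04. DNMT1, the maintenance DNA methyltransferase, had a pattern of its own. In stress cells it had 5.85 and 6.29 FPKM in conventional AGPC, 5.57 and 5.3 in the 1st-step fraction, 4.42 and 4.27 in hiAGPC, and 5.13 and 4.4 in the 2nd-step fraction. It was the only member whose highest group was a conventional one, although no conventional or 1st-step library listed its region. Its longest region reaches EIF3G, the next gene on the same strand, so reads of EIF3G may be counted in it.

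CHD1L, EZHIP and PHF6 went the other way. These 3 were the members listed in control cells only, so they had entered the table through the condition in which they were then higher. Their falls are therefore a description, as the rises are. EZHIP had 0.9 and 0.84 FPKM in control SERIPH 2nd-step libraries and 0.01 and 0.02 under stress. The log2 difference was -3.08 ± 0.088 (SE, limma, Benjamini-Hochberg adjusted p = 2.88e-12), and EZHIP fell in all 4 preparations. CHD1L, a helicase-like remodeller, had 1.78 and 1.34 in control SERIPH 2nd-step libraries and 0.12 and 0.18 under stress, and fell in all 4 preparations too. In the 1st-step fraction its stress values were 0 and 0.15, leaving out a library moved the log2 difference between -2.74 and -1.42, and the call was lost when only the libraries compared were fitted. PHF6, a PHD finger protein, had 0.82 and 0.63 against 0.29 and 0.22 and fell in 3 preparations. In hiAGPC its values were 0.59 and 0.58 against 0.25 and 0.32, which did not overlap but missed the fold threshold. Of the 9 members reproducible in a control group, 6 rose and 3 fell in the 2nd-step fraction, where 24.4% of the 635 such DoGs rose and 45.5% fell.

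**Figure D3:**
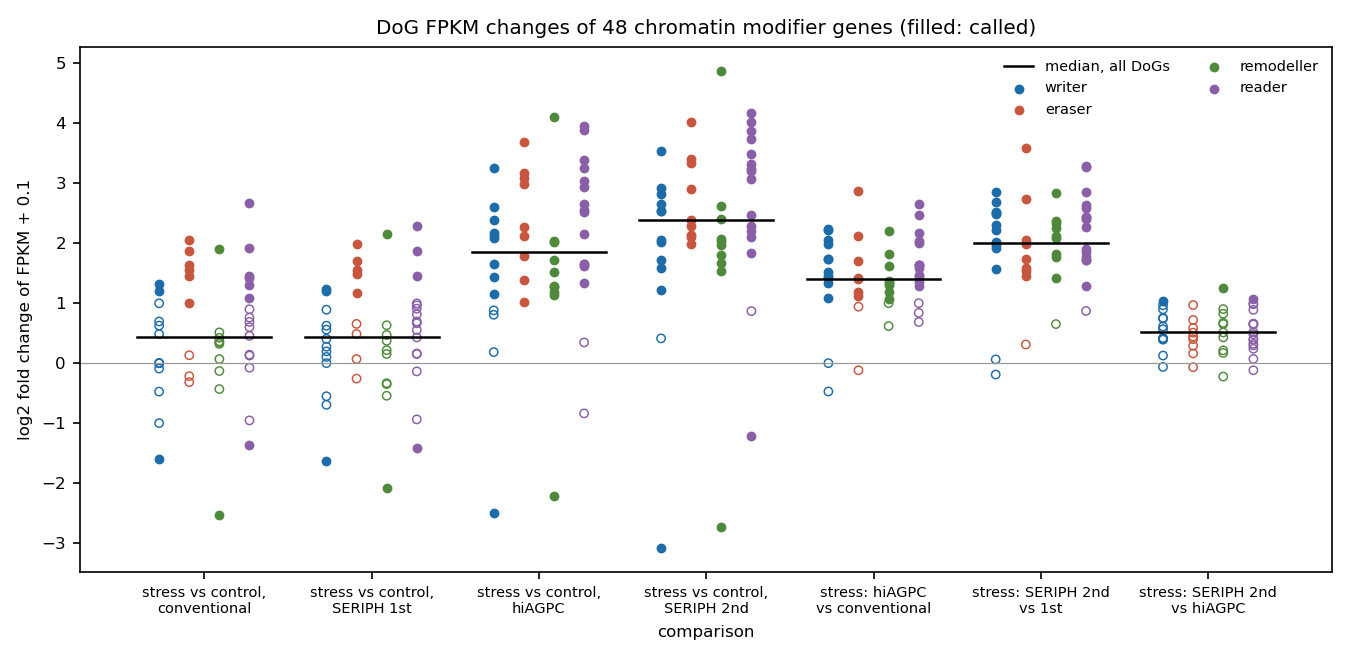
Log2 fold change of FPKM + 0.1 (vertical axis) for each of the 48 genes (points, coloured by role) in 7 comparisons (horizontal axis). Filled points are called and open points are not, and black lines are medians of all 3139 DoGs. For stress against control, 41 genes were called higher in hiAGPC and 43 in the 2nd-step fraction, and between these preparations under stress 3 were.

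How well these DoGs are recovered was addressed by comparing preparations of the same condition. Under stress, 39 members were higher in hiAGPC than in conventional AGPC and 0 lower (68.8% and 0.478% of all DoGs, limma). The members' median log2 difference was 1.45, and that of all DoGs was 1.40. KDM4B had 0.09 and 0.08 FPKM in conventional AGPC and 1.3 and 1.19 in hiAGPC, a log2 difference of 2.86 ± 0.079 (SE, limma, Benjamini-Hochberg adjusted p = 4.09e-11). PHF8 and CBX5 followed with 2.65 and 2.46. Centring the libraries takes 1.44 off each difference and leaves 3 members higher and 3 lower. SERIPH 2nd-step was higher than SERIPH 1st-step for 43 members and lower for 0 (79.3% and 2.96% of all DoGs, limma), with KDM4B, PHF8 and CBX5 again first at 3.58, 3.29 and 3.27. Centring takes 1.98 off and leaves 3 higher and 5 lower. Only 11 of the 48 members were listed in any conventional or 1st-step library, as were 24.6% of all DoGs. The other members had entered the table only through hiAGPC or 2nd-step libraries, the preparations in which most were then higher. The counts between preparations are therefore a description too. So is the p-value of KDM4B, which was listed only in stress hiAGPC and SERIPH 2nd-step libraries. KDM8, a Jumonji-family protein, was not called between stress preparations, with 0.51 and 0.48, 0.58 and 0.48, 0.4 and 0.5, and 0.72 and 0.64 FPKM in conventional AGPC, SERIPH 1st-step, hiAGPC and SERIPH 2nd-step.

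Whether the stress minus control difference was unequal between preparations was tested by an interaction term. The stress minus control difference was larger in hiAGPC than in conventional AGPC for 40 members and smaller for 0 (64% and 0.733% of all DoGs, limma). With centred libraries it was larger for 3 and smaller for 3. It was larger in the 2nd-step fraction than in hiAGPC for 2 members, CHD5 and CBX5, and smaller for 0 (5.58% and 1.15%). In every control library the median member lay below the pseudocount of 0.1 FPKM. For hiAGPC against conventional AGPC the members' median was 1.37 in the interaction, 1.45 under stress and 0.07 in control cells. The interaction was thus close to the comparison under stress alone.

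The preparations that recover interphase RNA differed less from each other. Under stress both SERIPH 2nd-step libraries lay above both hiAGPC libraries for 42 members and below for 0 (79.3% and 7.74% of all DoGs), with a median log2 difference of 0.51 for the members and 0.52 for all DoGs. The fold threshold left 3 members higher and 0 lower (6.91% and 1.75% of all DoGs, limma), and without it 39 were higher and 0 lower (68.7% and 4.75%). CHD5, a chromodomain helicase, had 0.13 and 0.11 FPKM in hiAGPC and 0.3 and 0.59 in SERIPH 2nd-step, a log2 difference of 1.26 ± 0.182 (SE, limma, Benjamini-Hochberg adjusted p = 7.7e-05), which was 0.86 and not called without the second SERIPH 2nd-step library. ASXL1, a scaffold of the BAP1 deubiquitinase, had 0.46 and 0.42 against 1.02 and 1.04, a log2 difference of 1.07 ± 0.11. SETD3 had 0.34 and 0.46 against 0.9 and 0.93, a difference of 1.03 ± 0.138, which was 0.86 and not called without the first hiAGPC library. Leaving that library out raised the number of called members from 3 to 7. With centred libraries 0 were called. CHD5 and SETD3 were listed in stress SERIPH 2nd-step libraries only, CHD5 in the second alone, so both had entered the table through the group in which they were then higher.

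In control cells fewer members passed the test between preparations. No member was called between hiAGPC and conventional AGPC (1.08% of all DoGs, limma), with 10 at an unadjusted p below 0.05, and none between SERIPH 2nd-step and hiAGPC (2.33%), with 18. Between SERIPH 2nd-step and SERIPH 1st-step 4 were higher and 1 lower (11% and 3.28%). EZHIP had 0.21 and 0.27 FPKM in the 1st-step fraction and 0.9 and 0.84 in the 2nd-step fraction. KDM4B had 0.1 and 0.12 against 0.4 and 0.41, and SETD5 0.03 and 0.05 against 0.24 and 0.22. DNMT1 was the lower one, with 4.56 and 3.65 against 1.4 and 1.65. CHD1L, the fifth, had 0.41 and 0.78 against 1.78 and 1.34, and its call was lost without the first library of either fraction, at log2 differences down to 0.90.

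DoG length was compared over the 24 members listed in both stress SERIPH 2nd-step and both stress hiAGPC libraries. The median ratio of mean lengths was 1.37, and 1.36 over the 1291 DoGs of that kind. By mean length 19 members were longer in the 2nd-step fraction, 3 shorter and 2 equal. In only 6 of them were both SERIPH 2nd-step regions longer than both hiAGPC regions (45.9% of such DoGs), and in 0 were both shorter (2.87%). When the shorter replicate of each preparation was taken, the median ratio was 1. The longest was the region of KDM6A, at 515 and 575 kb in 2nd-step libraries, against 540 and 490 kb in hiAGPC. ING1 had 330 and 325 kb against 265 and 225 kb, one of the 6 that did not overlap. CHD2 had 225 and 195 kb against 195 and 175 kb.

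Replicates of a library type could differ widely in length. ARID4A, an AT-rich interaction domain protein, had 60 and 422 kb in 2nd-step libraries, against 260 and 260 kb in hiAGPC, and ING3 had 235 and 356 kb against 310 and 310 kb. CHD3, with the largest ratio of 5.33, had 145 and 15 kb against 15 and 15 kb. KMT5B, which methylates lysine 20 of histone H4, had 30 and 75 kb against 10 and 10 kb, and ING2 had 65 and 70 kb against 25 and 25 kb. Of the 38 members reproducible in the stress 2nd-step fraction, 12 differed at least 2-fold between replicates (31.6%), against 18.8% of all 2014 such DoGs. The longest region reached another named gene on the same strand for 13 of the 48 members (27.1%), against 21.6% of all DoGs. Reads of that gene may be counted in the level. ARID4A, CBX5, DNMT1, HDAC2 and ING3 were among the 13. No member's own gene end lay in a listed DoG of another gene.

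**Figure D4:**
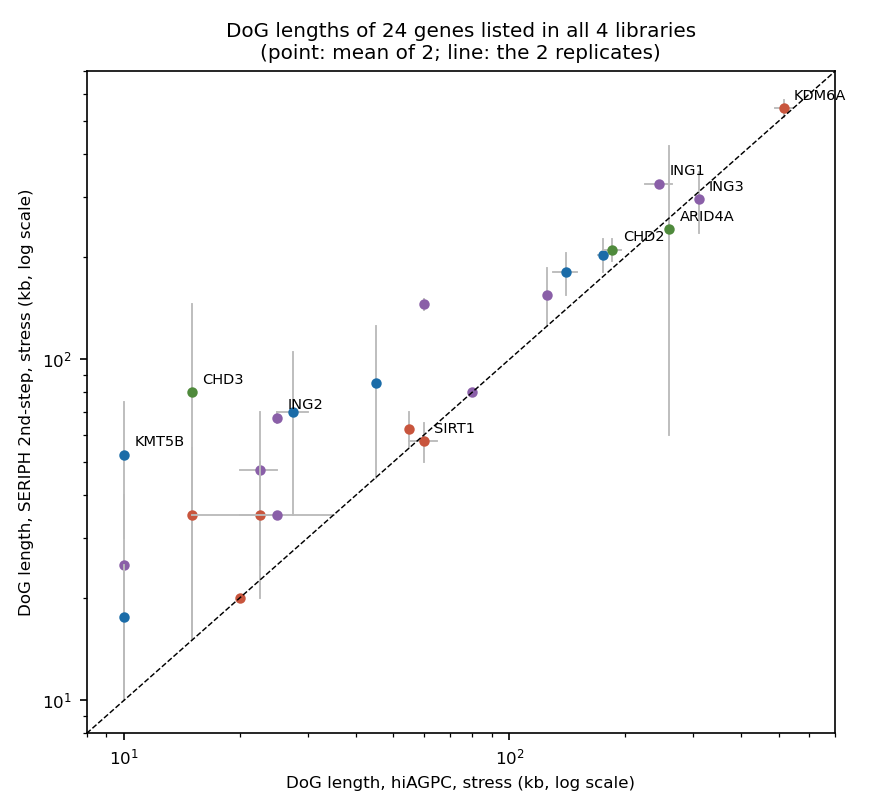
DoG length in the stress 2nd-step fraction (vertical axis) against stress hiAGPC (horizontal axis), both in kb on log scales, for the 24 genes listed in all 4 libraries; points are means of 2 libraries, lines join the replicates, and the dashed line marks equal length. Most points lie above the dashed line, with KDM6A the longest, and CHD3 and ARID4A have long replicate lines.

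CBX8, another Polycomb chromobox gene, had listed regions of 20 and 20 kb in stress hiAGPC and 80 kb in the first stress SERIPH 2nd-step library but no FPKM, and is not counted among the 48. Of 219 other chromatin genes put in a list by function, 69 had a DoG value. In the 2nd-step fraction 51 of these rose and 6 fell under stress, and in hiAGPC 48 rose and 4 fell, where 74.6% and 70.2% of all DoGs rose. Between SERIPH 2nd-step and hiAGPC under stress 6 were higher and 1 lower, beside 6.91% and 1.75% of all DoGs. The lower one was TET1, which oxidises methylated cytosine, with 1.74 and 1.94 FPKM in hiAGPC and 0.2 and 0.3 in SERIPH 2nd-step. The highest was NSD2, a methyltransferase for lysine 36 of histone H3, with 0.24 and 0.19 against 0.83 and 0.43.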

How the data were processed

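Ribosomal RNA-depleted stranded libraries of 16 HEK293 samples were sequenced by the authors, and per the labels fastp 0.25.0, Bowtie2 2.5.4 and STAR 2.7.11b were used with GRCh38. The authors called DoGs per library with ARTDeco and deposited one region list per library and a table of FPKM over 1 region per gene, rounded to 0.01. Read counts could not be recovered, so depth per library is unknown and no counting interval is given. Gene symbols were matched by Ensembl ID to GENCODE v44 on GRCh38 (3131 of 3139). Members and gene lists were chosen with earlier results of these data known. limma 3.58.1 (R 4.3.3) was run with an intensity trend on log2(FPKM + 0.1) over all 16 libraries, with Benjamini-Hochberg adjustment over 3139 DoGs, a threshold of 0.05 and a log2 difference of 1, and tested on simulated data. Numbers of listed members were compared by exact permutation (scipy 1.17.1). The study calls the replicates biological, but no source used here says how they were separated, so p-values measure the spread between these samples, which may in part be technical. Named genes were the 5 highest and 5 lowest called members of each comparison, members reproducible in a control group, those with the 5 longest regions or the 3 largest and 3 smallest length ratios, the highest member of each family, members highest in a control or aqueous group, and the 2 highest and 2 lowest called other chromatin genes; those without a value in the text are counted only. Alternatives were other pseudocounts, filters, centring, a replicate block and leaving out each library. The values of 1 member are not reported here singly.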

Additional observations from a re-analysis of the deposited data

Results flagged for a closer look

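Differences between preparations in the response to stress were tested as interaction terms in the limma fit. The median member lay below the pseudocount of 0.1 FPKM in every control library, so these terms were close to differences under stress alone. The log2 difference between stress and control was larger in hiAGPC than in conventional AGPC for 40 members (64% of all DoGs). Most members had entered the table through stress hiAGPC or SERIPH 2nd-step libraries, so this count is a description. CBX5 (2.60 on the log2 scale), PHF8 (2.59), KDM4B (2.48), CHD2 (2.20) and KAT8 (2.17) had the largest excess. The smallest called were CHD5 (1.07), KMT2E (1.08), KDM5B (1.11), KDM5C (1.12) and HDAC2 (1.12), and these 5 turned negative with centred libraries. The difference was larger in the 2nd-step fraction than in hiAGPC for 2 members (5.58% of all DoGs), and for 0 with centred libraries. These were CHD5 (1.26), listed at 0 FPKM in all control libraries of both preparations, so that its value depends on the pseudocount, and CBX5 (1.21). CHD5 was 0.86 and not called without the second stress SERIPH 2nd-step library.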

How the results depend on the processing

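The preparations share samples, but no source used here says whether a replicate number marks the same culture in each. Deviations of same-numbered libraries correlated between -0.0726 and 0.0571, and a replicate block moved no count of called members (46 in SERIPH 2nd-step and 43 in hiAGPC, stress against control). Counts below are called members. For stress against control, a pseudocount of 1 gave 0 in conventional AGPC, 10 in hiAGPC, 0 in SERIPH 1st-step and 18 in SERIPH 2nd-step, and 0.01 gave 26 in SERIPH 1st-step. Centred libraries gave 19 in hiAGPC and 17 in SERIPH 2nd-step, DoGs reproducible in a group compared gave 4 in conventional AGPC, 24 in hiAGPC and 2 in SERIPH 1st-step, and an adjusted p alone gave 37 in conventional AGPC and 37 in SERIPH 1st-step. For stress hiAGPC against conventional AGPC, a pseudocount of 1 gave 4, centring 6 and reproducible DoGs 22. For stress SERIPH 2nd-step against 1st-step, a pseudocount of 1 gave 10 and centring 8. Against hiAGPC, pseudocounts of 0.01 and 1 gave 9 and 0, centring 0, an adjusted p alone 39, and leaving out 1 library between 3 and 7. In control cells, a pseudocount of 0.01 gave 1 for hiAGPC against conventional AGPC, 12 for SERIPH 2nd-step against 1st-step and 2 against hiAGPC, an adjusted p alone gave 6, 19 and 12, and a pseudocount of 1 gave 1 for SERIPH 2nd-step against 1st-step. For the interaction of SERIPH 2nd-step and hiAGPC, a pseudocount of 1 and centring gave 0, a mean of at least 0.1 FPKM, reproducible DoGs and regions reaching no other gene gave 1 each, and an adjusted p alone 21. For that of hiAGPC and conventional AGPC, a pseudocount of 1 gave 3, centring 6 (3 of them lower) and reproducible DoGs 23. The stress minus control difference of listed members lay between 0 and 1 in SERIPH 1st-step and between 1 and 5 in conventional AGPC without a replicate. The median length ratio was 1 for the shorter replicates, 1.56 for regions listed in either, 1.26 for regions reaching no other gene, and between 1.15 and 1.26 without a replicate.

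Centring also turned the direction of 20 named differences, on the log2 scale. For stress against control these were KDM5A (-0.90), CHD5 (-0.78) and SETD3 (-0.76) in hiAGPC, and KAT7 (-1.02) and CHD7 (-0.71) in SERIPH 2nd-step. For stress hiAGPC against conventional AGPC they were CHD3 (-0.38), KMT2E (-0.37), HDAC2 (-0.33), KDM5C (-0.27) and SMARCD3 (-0.25). For stress SERIPH 2nd-step against 1st-step they were ASXL2 (-0.70), CHD3 (-0.57), HDAC2 (-0.53), KDM5C (-0.45) and KMT2E (-0.42). For the interaction of hiAGPC and conventional AGPC they were CHD5 (-0.30), KMT2E (-0.28), KDM5B (-0.25), KDM5C (-0.25) and HDAC2 (-0.25). The cause was not tested, beyond the shift that centring removes. Depth per library is unknown, and 5.98% of FPKM values are listed at 0.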
